A study of Homo sapiens with 44 samples.

Results

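The genes described here are 10 markers of the endothelium, the cell layer that lines blood vessels: EGFL7, CDH5, KDR, ESAM, PECAM1, TEK, TIE1, ERG, VWF and CLDN5. They were taken as a fixed list of symbols, chosen with earlier results of these data known. All 10 matched a single Ensembl identifier each among the 58721 identifiers counted in every library. Polyadenylated RNA was sequenced from 44 libraries of A549, a human lung adenocarcinoma cell line of epithelial origin, in 12 groups. Het1 and het2 (heterozygous by name) and homo (homozygous by name) carry a truncation of the TAZ2 domain of the acetyltransferase p300 (gene EP300). The remaining line is the parental line WT, and all 4 are A549 derivatives. Each line was sequenced as cultured cells with 3 libraries and as xenograft tumours collected at day 30 with 4 libraries. A further 16 tumour libraries, 4 per group, came from het1 and WT tumours given either SAHA, the histone deacetylase inhibitor vorinostat, or its vehicle DMSO for 4 weeks. The sources used here do not state whether each edited line is 1 clone, which host strain and site carried the tumours, or how old the hosts were. Separate cultures or hosts are not named for the libraries of any group either, so each p-value reflects only how far these libraries scatter, which may be technical.

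Library totals ran from 61168373 to 99593214 counts. Levels are given as CPM (counts per 1000000 library counts), scaled within each of the 3 tables, and members with few reads are given as counts. No 2 libraries of a group were identical among 60 pairs compared. EP300 checked nothing about the edit, because a truncated transcript can still be counted over the whole gene: its CPM averaged 185 in het1 cells, 153 in het2 cells, 190 in homo cells and 115 in WT cells. The 9 genes listed as A549 markers, among them the keratins KRT8 and KRT18, the cadherins CDH1 and CDH2 and the enzymes AKR1B10 and AKR1C1, fell in each edited line against WT in culture and at day 30 (edgeR, adjusted p below 0.05). In culture they summed to 2879 to 2997 CPM in het1, 2486 to 2552 CPM in het2 and 879 to 892 CPM in homo cells. WT cells had 14957 to 15061 CPM. The sum was 5882 to 10365 CPM over the 12 edited day 30 tumours, against 14524 to 15137 CPM in WT day 30 tumours. Read counts per gene do not separate tumour cells from host cells, and the sources used here do not state what was done with reads of the host animal.

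Endothelial cells are held together by the adhesion proteins VE-cadherin (CDH5), PECAM1, ESAM and claudin-5 (CLDN5). They respond to vascular endothelial growth factor through the receptor KDR (VEGFR2) and to angiopoietins through TEK (TIE2) with its co-receptor TIE1, and the ETS factor ERG helps to maintain their identity. VWF is stored in their granules and binds platelets, and EGFL7 is a protein they secrete into the matrix, whose gene also holds the endothelial microRNA miR-126 in an intron. Tumours need vessels to grow, and in a xenograft those vessels are usually supplied by the host, while some of these genes can also be transcribed by carcinoma cells.

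EGFL7 (ENSG00000172889) lies on chromosome 9 at 136658856 to 136672678 of hg38, plus strand, with 2553 exon bases. It overlaps the antisense gene HSPC324 and holds MIR126, but shares no exon base with either. Because EGFL7 was the member with the highest level in every group, the 250 bases before the start of RefSeq's 2 EGFL7 promoter entries are printed, beside those of KDR and TIE1, which were near 0 in cultured WT cells. The sequences are RefSeq's (GRCh38.p14), 5′ to 3′ on the gene's strand, and capitals mark GGAA or its reverse complement TTCC, the core to which ETS factors such as ERG bind.
EGFL7 start 1, chr9:136658606-136658855, plus strand: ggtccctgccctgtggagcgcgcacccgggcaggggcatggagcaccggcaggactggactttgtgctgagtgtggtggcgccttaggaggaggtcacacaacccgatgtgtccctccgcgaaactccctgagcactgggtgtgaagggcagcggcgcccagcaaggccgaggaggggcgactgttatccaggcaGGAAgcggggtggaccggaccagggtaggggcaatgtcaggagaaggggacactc
EGFL7 start 2, chr9:136662666-136662915, plus strand: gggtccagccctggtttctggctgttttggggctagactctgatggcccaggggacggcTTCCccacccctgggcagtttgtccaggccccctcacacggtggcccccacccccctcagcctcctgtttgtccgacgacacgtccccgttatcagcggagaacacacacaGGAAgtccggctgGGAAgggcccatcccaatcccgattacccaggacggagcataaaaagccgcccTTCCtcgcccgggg
KDR, chr4:55125596-55125845, minus strand: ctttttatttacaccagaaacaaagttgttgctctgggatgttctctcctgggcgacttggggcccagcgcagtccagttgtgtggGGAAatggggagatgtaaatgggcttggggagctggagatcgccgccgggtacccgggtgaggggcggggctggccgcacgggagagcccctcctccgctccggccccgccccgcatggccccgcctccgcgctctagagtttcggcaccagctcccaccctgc
TIE1, chr1:43300732-43300981, plus strand: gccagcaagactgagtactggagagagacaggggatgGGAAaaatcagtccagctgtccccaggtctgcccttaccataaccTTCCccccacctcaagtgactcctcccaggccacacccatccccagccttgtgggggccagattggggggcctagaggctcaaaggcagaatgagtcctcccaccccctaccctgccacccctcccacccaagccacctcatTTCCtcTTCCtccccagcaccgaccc
GGAA on either strand occurred 1 time in the first EGFL7 window, 4 times in the second, 1 time in the KDR window and 4 times in the TIE1 window. It is a common word, found in 92.7% of 35116 promoter windows of this length. The longer AGGAAG, which contains GGAA, occurred 1, 2, 0 and 1 times in the same order of windows and in 28.7% of all windows. The EGFL7 windows held 14 and 13 CpG, the KDR window 17 and the TIE1 window 1, against a median of 11.

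The 2 mature strands of miR-126 (RefSeq, GRCh38.p14) are shown because the EGFL7 results that follow concern its host gene, with the seed, bases 2 to 8, in capitals.
hsa-miR-126-5p: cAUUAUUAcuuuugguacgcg
hsa-miR-126-3p: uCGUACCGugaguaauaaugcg
The seeds differ, and the counts cannot follow the microRNA: MIR126 had 18 counts over all 44 libraries, at most 4 in any library of this polyadenylated RNA.

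EGFL7 was the member that cultured tumour cells expressed most. It was higher in each edited line than in WT in culture and at day 30, and in het1 than in WT in treated tumours. In culture it measured 22.2, 20.5 and 25.9 CPM in het1 cells, 25.9, 25.5 and 23.3 CPM in het2 cells, 27.5, 30.1 and 29.4 CPM in homo cells, and 14.0, 13.2 and 13.0 CPM in WT cells. No edited library reached down to the WT range. In day 30 tumours the values were 67.1, 67.5, 55.2 and 64.6 CPM in het1, 40.2, 41.6, 36.2 and 46.3 CPM in het2, 57.4, 73.2, 65.1 and 66.6 CPM in homo, and 12.2, 9.54, 10.2 and 10.7 CPM in WT tumours. The gap between edited and WT groups was wider in tumours than in culture. Fold changes against WT cells were 1.71 in het1 (log2 0.77 ± 0.07 SE, adjusted p = 1.12e-11), 1.86 in het2 (log2 0.89 ± 0.07, adjusted p = 2.1e-13) and 2.16 in homo (log2 1.11 ± 0.07, adjusted p = 1.02e-15). Against WT tumours at day 30 they were 5.97 in het1 (log2 2.58 ± 0.09, adjusted p = 2.94e-14), 3.85 in het2 (log2 1.95 ± 0.09, adjusted p = 2.36e-12) and 6.15 in homo (log2 2.62 ± 0.09, adjusted p = 1.33e-14). All p-values here come from edgeR's quasi-likelihood test over all genes that passed its filter, with Benjamini-Hochberg adjustment and a threshold of 0.05.

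**Figure D1:**
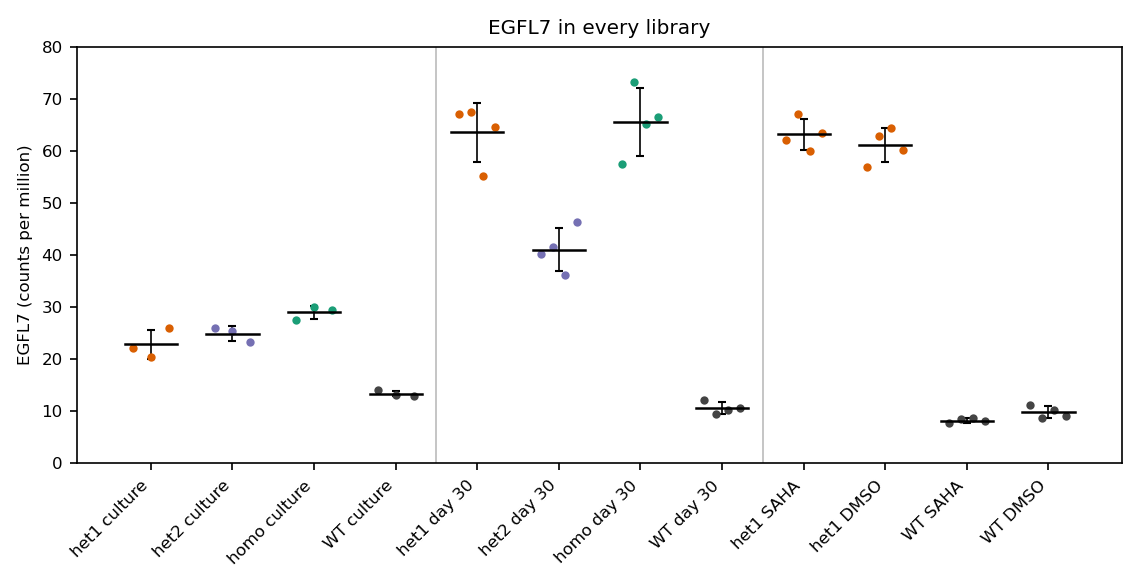
EGFL7 in CPM (linear axis from 0) for every library of the 12 groups; points are libraries, thick lines group means and thin bars 1 SD, with colours for the lines and grey lines between cultured cells, day 30 tumours and treated tumours. Levels were scaled within each of the 3 tables; edited tumours lie between 36.2 and 73.2 CPM, and every WT library, in culture or tumour, at or below 14.0 CPM.

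EGFL7 rose in tumours over culture in the edited lines and fell in WT. The log2 change from culture to day 30 was 1.59 ± 0.09 in het1, 0.85 ± 0.09 in het2 and 1.30 ± 0.09 in homo, and it was -0.29 ± 0.10 in WT (adjusted p = 0.00913). The difference between edited and WT lines in this change, a test added after the values were seen, was 1.88 on the log2 scale for het1 (adjusted p = 1.96e-12), 1.14 for het2 (adjusted p = 2.14e-08) and 1.59 for homo (adjusted p = 2.69e-11). Cultured cells and tumours were deposited in separate tables, so table and growth setting cannot be told apart.

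Treated tumours gave the same order. EGFL7 measured 62.2, 67.1, 60.0 and 63.5 CPM in het1 tumours under SAHA, 57.0, 62.8, 64.4 and 60.3 CPM in het1 tumours under DMSO, 7.68, 8.45, 8.63 and 8.05 CPM in WT tumours under SAHA, and 11.3, 8.65, 10.3 and 9.07 CPM in WT tumours under DMSO. The het1 libraries all lay above the WT libraries under either agent. The fold change of het1 against WT was 7.71 under SAHA (log2 2.95 ± 0.08, adjusted p = 2.62e-16) and 6.22 under DMSO (log2 2.64 ± 0.07, adjusted p = 8.43e-16). SAHA against DMSO changed EGFL7 by 0.05 ± 0.07 on the log2 scale in het1 (adjusted p = 0.686) and by -0.26 ± 0.07 in WT (adjusted p = 0.26), neither of which was called although the 4 WT tumours under SAHA all lay below those under DMSO. The difference between the lines in the SAHA response was 0.31 ± 0.10 (adjusted p = 0.087), and it was called when DMSO replicate 3 of WT was left out (0.37, adjusted p = 0.0342), with adjusted p between 0.0538 and 0.42 under the other settings tried.

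Apart from EGFL7, cultured A549 cells held few reads of these markers. With a member counted as seen when each library of a group had at least 10 counts, EGFL7 was seen in all 4 cultured lines, ESAM in het1, homo and WT, and CDH5 in WT. The remaining 7 members were seen in 0 of the 4 cultured lines. ERG (ENSG00000157554, chromosome 21, minus strand) was the member closest to absence, with 3 counts over all 12 cultured libraries and no more than 1 in any of them, and 723 counts over the 32 tumour libraries, with at least 6 in each. In tumours EGFL7, KDR, PECAM1 and TEK were seen in all 8 groups, ESAM and ERG in 7, TIE1 in 3 and CDH5 in 2, the het2 and homo day 30 groups. VWF and CLDN5 were seen in no group under this rule, tumours included, with 230 and 301 counts over the 32 tumour libraries.

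**Figure D2:**
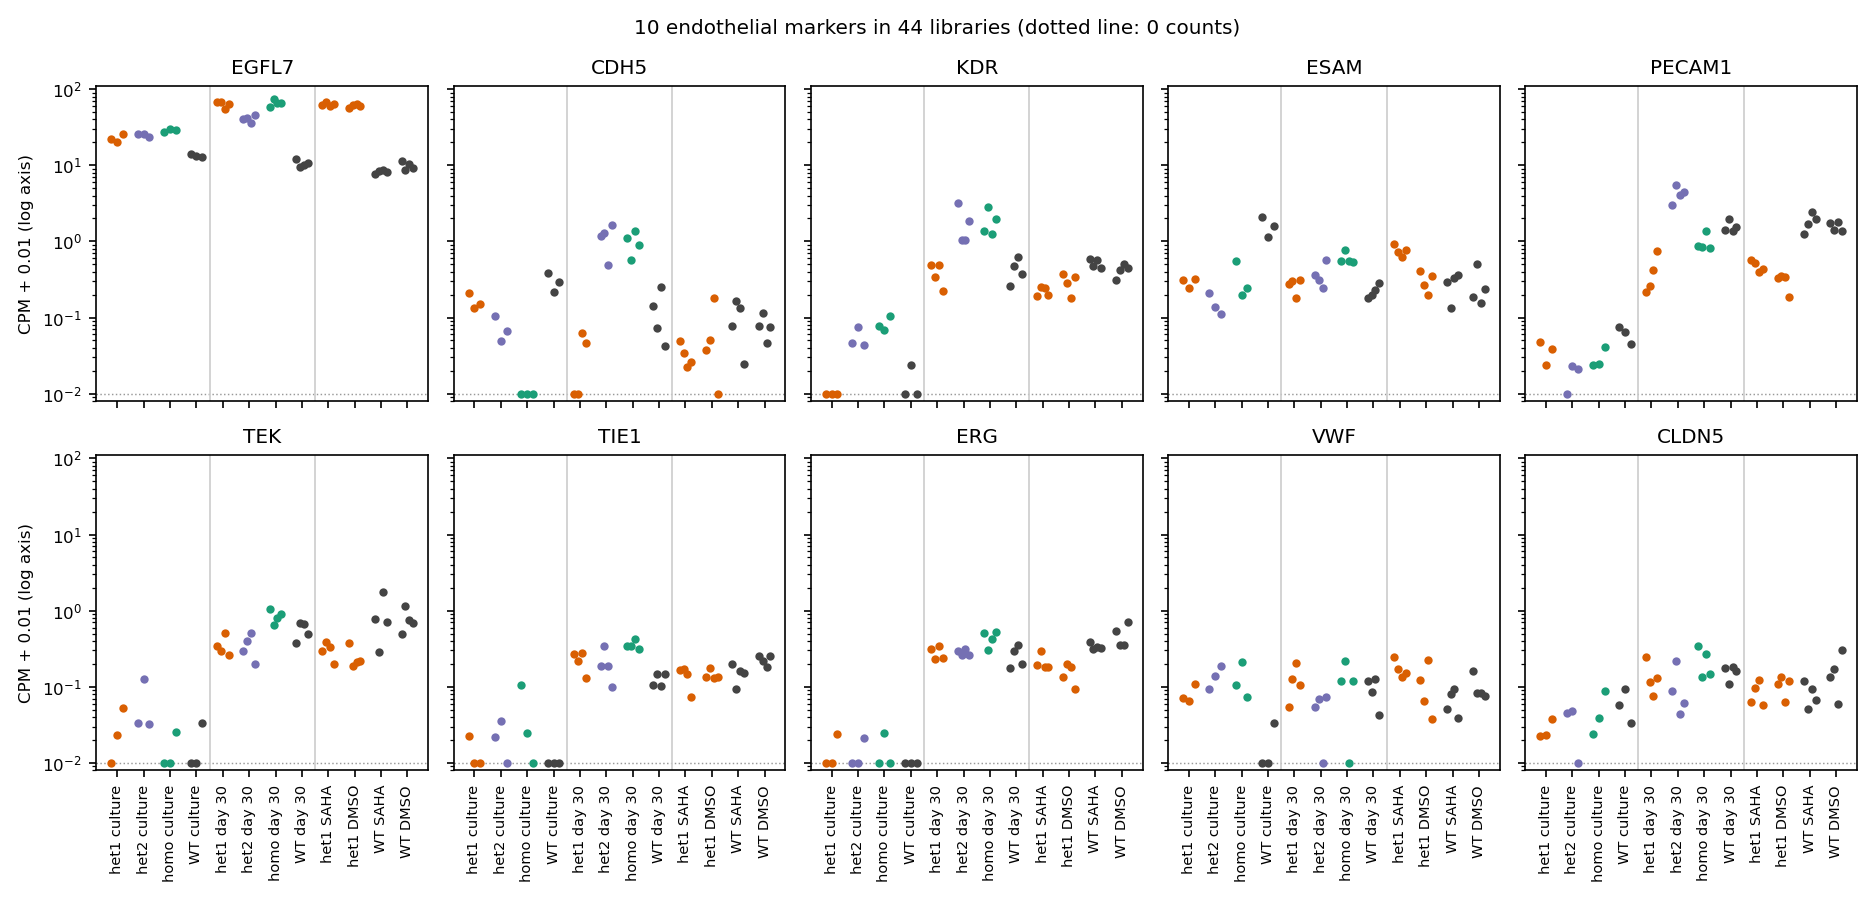
Each of the 10 members in every library, in CPM plus a small constant on a log axis, with the dotted line marking 0 counts; colours give the line and grey lines separate cultured cells, day 30 tumours and treated tumours. EGFL7 is between 7.68 and 73.2 CPM everywhere, ERG has at most 1 count in a cultured library, and CDH5 is at 0 in all 3 homo cultures and between 0.559 and 1.35 CPM in homo day 30 tumours.

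Between genes, levels can be compared per kilobase of exon. EGFL7 led all 12 groups, from 3.21 ± 0.17 CPM per kb in WT tumours under SAHA to 25.7 ± 2.5 CPM per kb in homo day 30 tumours (SD, n = 4 each). Next in homo day 30 tumours came KDR at 0.280 ± 0.113, ESAM at 0.202 ± 0.038, TEK at 0.174 ± 0.035, CDH5 at 0.160 ± 0.055 and PECAM1 at 0.124 ± 0.033 CPM per kb, each within 1 SD of its neighbour. In het2 day 30 tumours the order after EGFL7 was PECAM1 at 0.548 ± 0.134, KDR at 0.273 ± 0.157 and CDH5 at 0.186 ± 0.078 CPM per kb, of which KDR and CDH5 were within 1 SD of each other. In WT day 30 tumours PECAM1 at 0.200 ± 0.035 CPM per kb and TEK at 0.112 ± 0.031 CPM per kb followed EGFL7 at 4.17 ± 0.44 CPM per kb.

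The adhesion molecule ESAM (ENSG00000149564, chromosome 11 at 124752583 to 124762290, minus strand), which sits at endothelial and platelet junctions, was lower in each edited line than in WT in culture, the opposite of EGFL7. Counts were 24, 17 and 22 in het1 cells, 17, 10 and 9 in het2 cells, 40, 13 and 15 in homo cells, and 130, 82 and 135 in WT cells. The lowest WT library held more ESAM reads than the 3 homo libraries together, which had 68. The log2 change against WT was -2.50 ± 0.32 in het1 (adjusted p = 3.32e-08), -3.45 ± 0.35 in het2 (adjusted p = 1.73e-10) and -2.28 ± 0.32 in homo (adjusted p = 1.32e-07), where it was -2.91 without homo replicate 1.

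VE-cadherin (CDH5, ENSG00000179776, chromosome 16 at 66366622 to 66404786, plus strand), the main adhesion protein of endothelial junctions, was a trace transcript of cultured cells. It had 16, 9 and 10 counts in het1 cells, 8, 3 and 5 in het2 cells, 0 in all 3 homo libraries, and 23, 15 and 24 in WT cells. Homo cells were at least 19.3-fold lower than WT cells, taking 3 counts over the group as the most that 0 allows (adjusted p = 3.07e-07). The change was -2.12 ± 0.53 on the log2 scale in het2 (adjusted p = 0.000719) and -0.87 ± 0.47 in het1 (adjusted p = 0.113). In culture only WT, where CDH5 is high, had at least 10 counts in each library, so the filter favoured lower calls. EGFL7, ESAM and CDH5 were the 3 members that passed the filter on low counts in culture, so the other 7 had no test there. Of those 3, the calls were 1 higher and 1 lower in het1, 1 higher and 2 lower in het2, and 1 higher and 2 lower in homo, beside 32%, 35.1% and 35.4% of all genes tested that were called higher and 30.8%, 33.3% and 35.1% called lower.

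KDR (ENSG00000128052, chromosome 4 at 55078259 to 55125595, minus strand) had a trace in culture that differed by line. It had 0 counts in the 3 het1 libraries, 3, 5 and 3 in het2, 5, 4 and 6 in homo, and 0, 1 and 0 in WT. The ratio to WT cells over summed counts was 9.7 in het2 (95% exact interval 1.41 to 418) and 16.1 in homo (2.47 to 677), intervals that cover counting error only. VWF was likewise a trace of cultured edited cells, with 5, 4 and 7 counts in het1, 7, 10 and 16 in het2, 7, 14 and 4 in homo, and 0, 0 and 2 in WT. Its ratio to WT cells was 7.84 in het1 (1.84 to 70.3), 14.6 in het2 (3.72 to 125) and 13.4 in homo (3.34 to 117).

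In day 30 tumours KDR and CDH5 were higher in het2 and homo than in WT, whereas het1 was not higher. KDR measured 0.481, 0.329, 0.478 and 0.214 CPM in het1, 3.22, 1.04, 1.04 and 1.86 CPM in het2, 1.35, 2.85, 1.23 and 1.93 CPM in homo, and 0.253, 0.459, 0.615 and 0.363 CPM in WT tumours. The het2 and homo libraries all lay above every WT library, while het1 overlapped WT. KDR's log2 change was 2.08 ± 0.40 in het2 (adjusted p = 0.000329), 2.12 ± 0.40 in homo (adjusted p = 0.000241) and -0.18 ± 0.45 in het1 (adjusted p = 0.767).

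CDH5 had 0, 0, 4 and 3 counts in het1 tumours, 106, 127, 43 and 127 in het2, 69, 40, 116 and 65 in homo, and 11, 5, 21 and 3 in WT. In homo, CDH5 had 0 counts in culture and was seen in each tumour library, and the counts do not show which cells made these reads. Its log2 change against WT tumours was 3.26 ± 0.50 in het2 (adjusted p = 2.97e-05) and 3.05 ± 0.51 in homo (adjusted p = 5.42e-05), and it was 3.9 and 3.69 without WT replicate 2, the highest of the WT tumours. CDH5 passed the filter on low counts at day 30 only through het2 and homo, where it is high, so a call there could only fall that way. In het1 it fell by 2.29 ± 0.86 (adjusted p = 0.0329), a call that was lost without WT replicate 0 (-2.22), WT replicate 2 (-1.64), het1 replicate 1 (-1.92) or het1 replicate 2 (-1.89), and the value was -3.02 without het1 replicate 3. With no filter on low counts it was not called either (-2.30).

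PECAM1 (ENSG00000261371, chromosome 17 at 64319415 to 64413776, minus strand), the adhesion receptor CD31 of endothelium, platelets and leukocytes, differed from WT in opposite directions in het1 and het2. It measured 0.204, 0.250, 0.413 and 0.736 CPM in het1 tumours, 3.00, 5.52, 4.04 and 4.46 CPM in het2, 0.856, 0.839, 1.35 and 0.814 CPM in homo, and 1.41, 1.95, 1.35 and 1.52 CPM in WT. All het1 libraries were below and all het2 libraries above the WT range. Its log2 change was -1.93 ± 0.30 in het1 (adjusted p = 2.55e-05) and 1.45 ± 0.26 in het2 (adjusted p = 0.000127). In homo it was -0.68 ± 0.28 (adjusted p = 0.0469), which did not pass the threshold without WT replicate 0, 1, 2 or 4 or homo replicate 0, 1 or 5 (-0.74 to -0.55), with no filter (-0.68) or with a filter at a mean of 1 CPM (-0.65). The homo tumour that stood highest, replicate 4, overlapped WT.

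**Figure D3:**
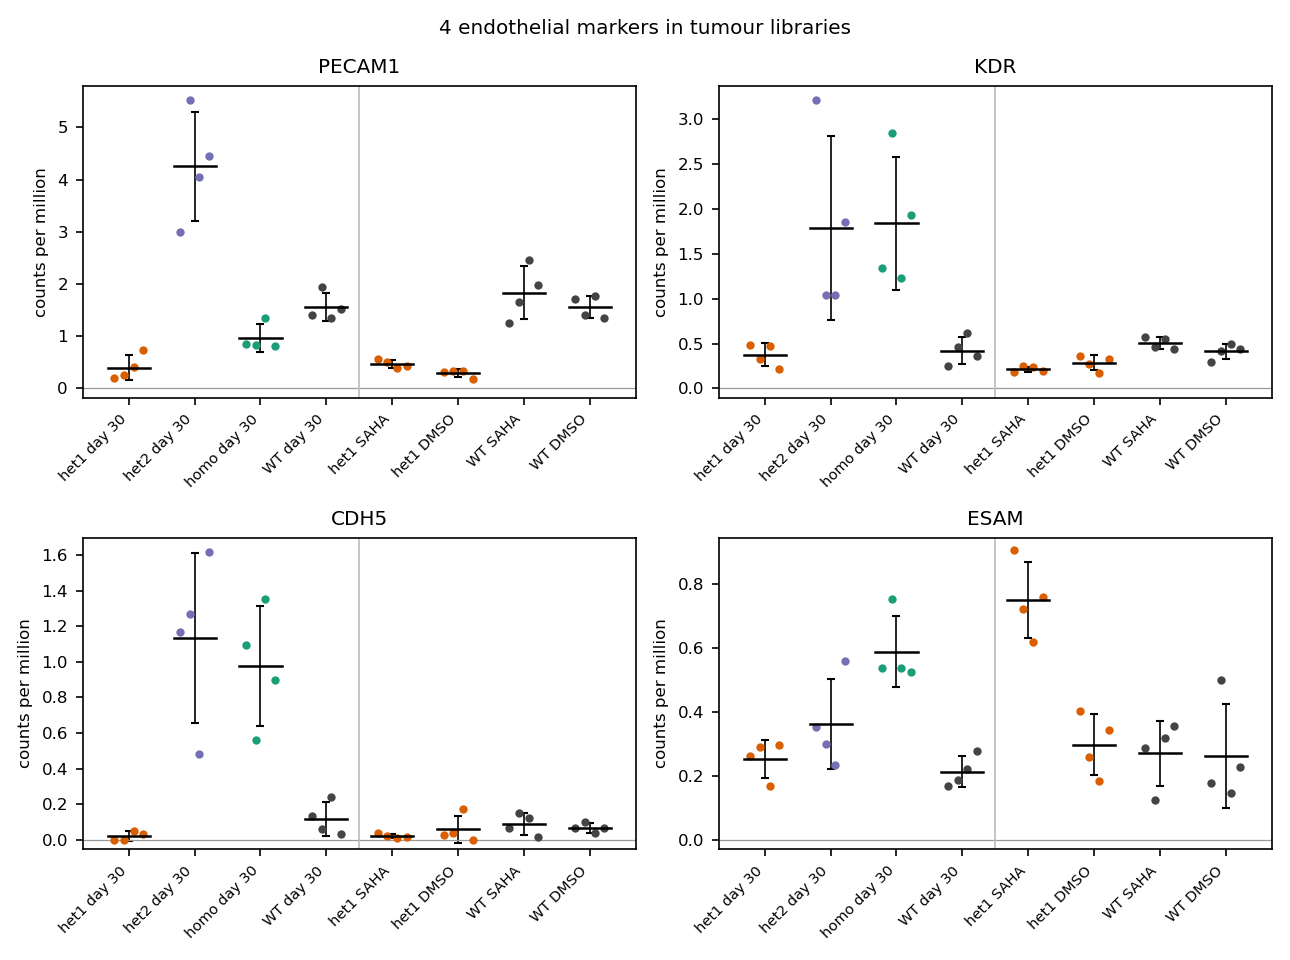
PECAM1, KDR, CDH5 and ESAM in CPM (linear axes) in every tumour library; points are libraries, thick lines means and thin bars 1 SD, with a grey line between day 30 and treated tumours. PECAM1 is highest in het2 (3.00 to 5.52 CPM), KDR and CDH5 stand above WT in het2 and homo, and ESAM is highest in het1 under SAHA (0.617 to 0.905 CPM).

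ESAM and TIE1 were higher in homo day 30 tumours than in WT. ESAM measured 0.263, 0.290, 0.168 and 0.297 CPM in het1, 0.353, 0.300, 0.236 and 0.560 CPM in het2, 0.539, 0.755, 0.537 and 0.524 CPM in homo, and 0.169, 0.186, 0.220 and 0.278 CPM in WT. Only the homo group stood clear of WT. The log2 change was 1.45 ± 0.29 in homo (adjusted p = 0.000261) and 0.25 ± 0.31 in het1 (adjusted p = 0.537). In het2 it was 0.74 ± 0.30 (adjusted p = 0.0442), a call that was lost without het2 replicate 0 (0.75) or 4 (0.47), or WT replicate 0 (0.65), 1 (0.68) or 2 (0.76), with no filter (0.76) and in a fit of those 2 groups alone (0.77).

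TIE1 (ENSG00000066056, chromosome 1 at 43300993 to 43323108, plus strand), the orphan co-receptor of TEK, had 18, 16, 21 and 10 counts in het1 tumours, 16, 33, 16 and 7 in het2, 21, 24, 36 and 22 in homo, and 8, 11, 8 and 13 in WT. The homo counts were all above the WT counts. Its log2 change was 1.57 ± 0.37 in homo (adjusted p = 0.00119), 0.87 ± 0.39 in het1 (adjusted p = 0.0647) and 0.75 ± 0.38 in het2 (adjusted p = 0.113), and het1 and het2 passed the threshold without their own replicate 4 (1.09 and 0.97).

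TEK (ENSG00000120156, chromosome 9 at 27109141 to 27230175, plus strand), the angiopoietin receptor, did not pass the test at day 30. It had 23, 22, 39 and 21 counts in het1, 26, 39, 44 and 15 in het2, 65, 45, 68 and 64 in homo, and 30, 54, 56 and 45 in WT. Each edited line overlapped WT. The log2 change was -0.65 ± 0.30 in het1 (adjusted p = 0.0752), -0.66 ± 0.29 in het2 (adjusted p = 0.0711) and 0.62 ± 0.28 in homo (adjusted p = 0.066). Each came under the threshold without single libraries: het1 without WT replicate 0 (-0.80) or het1 replicate 3 (-0.89), het2 without WT replicate 0 (-0.80) or het2 replicate 3 (-0.88), and homo without homo replicate 1 (0.74) or in a fit of homo and WT alone (0.62).

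ERG, the ETS factor, had 21, 17, 26 and 19 counts in het1 tumours, 26, 25, 27 and 20 in het2, 31, 21, 36 and 37 in homo, and 14, 23, 30 and 18 in WT. Each edited line overlapped WT in CPM. Its log2 change was 0.13 ± 0.29 in het1 (adjusted p = 0.739), 0.14 ± 0.29 in het2 (adjusted p = 0.722) and 0.78 ± 0.28 in homo (adjusted p = 0.0239), where the call was lost without homo replicate 0 (0.72) or 5 (0.69) or WT replicate 0 (0.64) or 4 (0.67), and with no filter (0.78). The tight-junction gene CLDN5 had 3 to 22 counts per day 30 tumour and no call (log2 -0.20, -0.63 and 0.52 in het1, het2 and homo), although het2 was called without het2 replicate 1 (-1.41). VWF, at 0 to 15 counts per day 30 tumour, did not pass the filter there.

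Among the 9 members tested at day 30, 1 was called higher and 2 lower in het1, 5 higher and 0 lower in het2, and 6 higher and 1 lower in homo. The shares of all genes tested that were called higher were 26.8%, 24.4% and 27.1%, and those called lower were 24.8%, 24.8% and 27.7%, in het1, het2 and homo. The median log2 change over the 9 tested members was -0.18 in het1, 0.75 in het2 and 1.45 in homo, beside 0.017, -0.015 and 0.011 over all genes tested. EGFL7, which cultured cells express, is among the members that rose in each line. CDH5, counted among those called higher in het2 and homo, passed the filter only through these groups. The 3 comparisons share the WT tumours. In bulk tumours, a change in the number of cells of a type and a change in RNA per cell cannot be told apart.

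Markers of other cell types in the tumours were read beside these values. At day 30 the fibroblast list (10 genes) summed to 108 to 293 CPM in het1, 107 to 354 CPM in het2, 321 to 493 CPM in homo and 221 to 367 CPM in WT tumours, with 4, 3 and 4 of its genes higher and 0, 0 and 1 lower in het1, het2 and homo. The same genes were also counted in culture, at 42.8 to 45.2 CPM in het1, 107 to 111 CPM in het2, 87.6 to 92.9 CPM in homo and 7.34 to 8.36 CPM in WT cells, with no overlap between the edited lines and WT. The myeloid list (10 genes) summed to 19.0 to 22.7 CPM in het1, 28.6 to 36.6 CPM in het2, 23.6 to 26.1 CPM in homo and 34.4 to 48.3 CPM in WT tumours. Over all 32 tumours its members ran from 11 counts (TYROBP, the lowest) to 49447 counts (LYZ, the highest). In culture the myeloid list summed to 10.1 to 10.9 CPM in het1 and 12.3 to 13.3 CPM in het2. It reached 13.6 to 14.4 CPM in homo and 12.2 to 12.7 CPM in WT cells. PECAM1, which leukocytes and platelets also carry, was low in het1 as the myeloid sum was, but highest in het2, where that sum was not. The platelet and megakaryocyte list (6 genes) summed to 4.53 to 7.80 CPM in het1, 3.39 to 5.27 CPM in het2, 4.65 to 5.44 CPM in homo and 5.29 to 6.61 CPM in WT tumours. In culture the same list summed to 8.08 to 8.79 CPM in het1 and 5.42 to 5.88 CPM in het2. It reached 6.35 to 6.65 CPM in homo and 4.29 to 4.77 CPM in WT cells. Its genes ITGA2B and GP1BA had 2537 and 2995 counts over the 12 cultures, so the sum is no measure of platelets alone. The erythroid list (5 genes) summed to 2.30 to 5.75 CPM in het1 and 2.18 to 5.12 CPM in het2 tumours. It was 1.36 to 1.75 CPM in homo and 1.24 to 2.49 CPM in WT tumours. Its gene HBB had 1 count over the 12 cultures and 6468 over the 32 tumours. The part of these cell types in the marker differences was not tested.

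Between culture and day 30 tumours of the same line, KDR, PECAM1, TEK, TIE1 and ERG were higher in tumours in all 4 lines. These members passed the filter only through the tumours, where they are high, so their calls had to fall that way, and the same holds for CLDN5. Of the 10 members tested, 7 were called higher and 1 lower in het1, 9 and 0 in het2, 9 and 0 in homo, and 7 and 3 in WT, beside 36.8%, 35.6%, 34.8% and 35% of all genes called higher and 28.4%, 30.6%, 29.3% and 32.1% called lower. Because culture counts were often 0 to 3, several sizes are given as CPM ratios with 95% exact intervals for counting error, or as lower bounds against 3 counts over the group.

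ERG was 66-fold higher in het1 tumours than in het1 cells (11.5 to 2638), 74.9-fold in het2 (13.1 to 2990) and 95.8-fold in homo (16.9 to 3814), and at least 18.8-fold higher in WT, which had 0 counts in culture. KDR was at least 30-fold higher in het1 and 96.1-fold higher in WT (17 to 3820), and its log2 change was 5.42 ± 0.54 in het2 and 4.75 ± 0.51 in homo. PECAM1 was 587-fold higher in het2 (162 to 4851), and its log2 change was 3.97 ± 0.53 in het1, 5.65 ± 0.52 in homo and 4.96 ± 0.42 in WT. Every day 30 tumour was above every culture of its line for these 3 genes.

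TEK was 186-fold higher in homo tumours (33 to 7357) and 61.3-fold higher in WT (16.7 to 510), with log2 changes of 4.26 ± 0.65 in het1 and 2.80 ± 0.52 in het2, the line whose cultures held most TEK (2, 9 and 2 counts). TIE1 was 51.7-fold higher in het1 (8.96 to 2073), 18.4-fold in het2 (6.03 to 91.1) and at least 8.83-fold in WT, and its log2 change was 3.26 ± 0.63 in homo. With so few culture reads the fitted values rested on single cultures. Leaving out single cultures gave TEK 5.51 (het1 replicate 3) and 3.67 (het1 replicate 1), 3.93 (het2 replicate 2), 9.08 (homo replicate 3) and 8.45 (WT replicate 3). In the same way TIE1 became 7.12 (het1 replicate 1), 4.86 (het2 replicate 2) and 5.38 (homo replicate 1), ERG 7.46 (het1 replicate 3), 7.48 (het2 replicate 3) and 8.12 (homo replicate 2), and KDR 8.11 (WT replicate 2), all on the log2 scale and all still called.

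**Figure D4:**
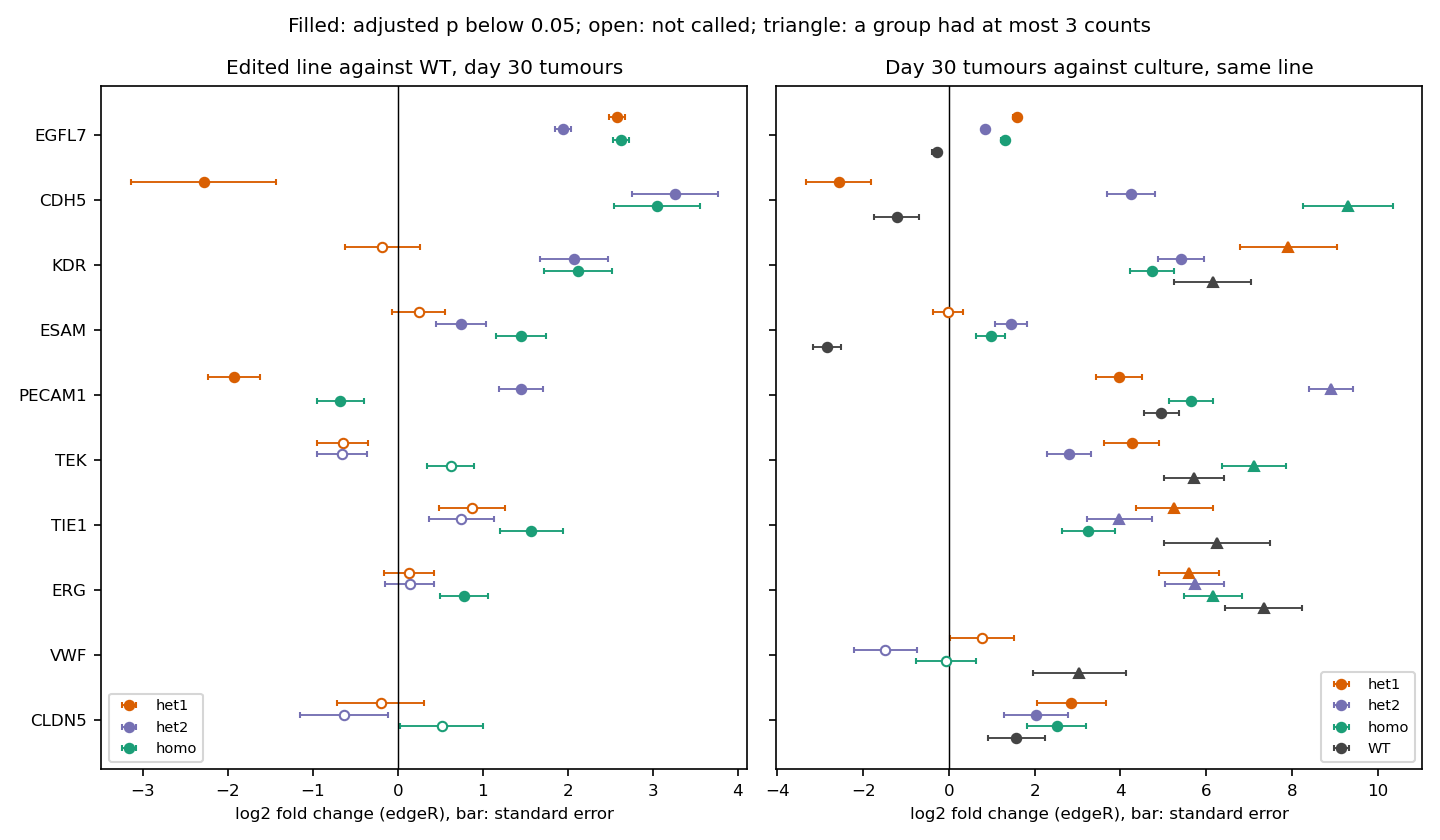
Fitted log2 fold changes with standard errors for the members tested, by line (colours); the left panel sets each edited line against WT in day 30 tumours and the right panel day 30 tumours against culture of the same line. Filled symbols have adjusted p below 0.05 (edgeR) and triangles mark comparisons in which a group had at most 3 counts, where the fitted size is no bound; ERG, TEK, TIE1, KDR and PECAM1 lie to the right of 0 in all 4 lines on the right, while EGFL7 and ESAM lie right of 0 in homo and left of it in WT.

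CDH5 and ESAM, each seen in at least 1 cultured line, split by line. CDH5 was at least 74.1-fold higher in homo tumours than in homo cells and rose by 4.25 ± 0.55 on the log2 scale in het2, and it fell by 2.57 ± 0.77 in het1 (adjusted p = 0.00434), or by 3.31 without het1 tumour replicate 3. In WT it fell by 1.22 ± 0.53 (adjusted p = 0.043), a call lost without WT culture replicate 1 (-1.0) or 3 (-1.23) or WT tumour replicate 0 (-1.28), 1 (-1.02) or 4 (-0.89), while the value was -1.85 without WT tumour replicate 2. That call was also lost with other size factors (-1.17) or no filter (-1.19). ESAM fell by 2.84 ± 0.32 in WT (adjusted p = 2.02e-09) and was -0.02 ± 0.36 in het1 (adjusted p = 0.96). It rose by 1.44 ± 0.37 in het2 (adjusted p = 0.0011) and by 0.97 ± 0.33 in homo (adjusted p = 0.0122), the last being 1.60 without homo culture replicate 1 and not called without homo culture replicate 2 (0.70) or 3 (0.79).

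CLDN5 rose by 2.86 ± 0.80 in het1, 2.03 ± 0.75 in het2, 2.51 ± 0.69 in homo and 1.57 ± 0.66 in WT on the log2 scale. The het2 call was lost without culture replicate 3 (1.44) or tumour replicate 1 (1.24), and the WT call without culture replicate 1 (1.55) or 3 (1.19) or tumour replicate 0 (1.5), 2 (1.49) or 4 (1.57). The homo value was 3.35 without culture replicate 3. VWF was called in WT alone of the 4 lines, where 28 counts in tumours and 2 in culture gave a ratio of 9.28 (2.34 to 80.4), and the call was lost without WT culture replicate 1 (2.62) or 2 (2.54), the fitted value being 5.76 without culture replicate 3. In the other lines its log2 change was 0.77 ± 0.74 in het1, -1.48 ± 0.74 in het2 and -0.08 ± 0.70 in homo.

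The change from culture to tumour was set against that of WT directly, in a test added after the values were seen. ESAM differed in each line, by 2.82 ± 0.48 on the log2 scale in het1 (adjusted p = 1.62e-05), 4.28 ± 0.49 in het2 (adjusted p = 9.74e-09) and 3.81 ± 0.46 in homo (adjusted p = 2.84e-08), or 4.44 in homo without homo culture replicate 1. CDH5 differed in het2 by 5.47 ± 0.77 (adjusted p = 8.4e-07), or 6.10 without WT tumour replicate 2, and in homo (adjusted p = 4.37e-08), where culture counts of 0 mean that the fitted size is no bound. PECAM1 differed in het2 by 3.96 ± 1.03 (adjusted p = 0.00182). The het2 cultures held 2 PECAM1 counts in all, and the WT cultures 2 each of TEK and VWF. The fitted sizes for PECAM1, TEK and VWF are therefore no bounds. TEK differed in het2 by -2.93 ± 1.06 (adjusted p = 0.0229), a call lost without het2 culture replicate 2 (-1.80) or WT culture replicate 1 (-2.51) or 2 (-2.42), and the value was -5.65 without WT culture replicate 3. VWF differed in het2 by -4.52 ± 1.31 (adjusted p = 0.0048), or -7.24 without WT culture replicate 3, and in homo by -3.11 ± 1.32 (adjusted p = 0.0506), which passed the threshold without WT culture replicate 3 (-5.83), homo culture replicate 3 (-3.41), WT tumour replicate 4 (-3.39) or homo tumour replicate 1 (-3.69), and with other size factors (-3.17), DESeq2 (-3.40) or no filter (-3.17). With EGFL7 the calls over 10 members were 2 higher and 0 lower in het1, 4 and 2 in het2, and 3 and 0 in homo, beside 24.2%, 27.2% and 28.7% of all genes called higher and 15%, 20.4% and 20.4% called lower.

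In treated tumours, het1 was again below WT for PECAM1 and also for TEK, and under DMSO for ERG as well. PECAM1 measured 0.564, 0.503, 0.383 and 0.427 CPM in het1 under SAHA and 1.25, 1.66, 2.45 and 1.98 CPM in WT under SAHA, and 0.321, 0.342, 0.331 and 0.178 CPM in het1 under DMSO and 1.72, 1.41, 1.77 and 1.35 CPM in WT under DMSO. No het1 library reached the WT range. Its log2 change in het1 against WT was -1.96 ± 0.23 under SAHA (adjusted p = 4.09e-07) and -2.41 ± 0.24 under DMSO (adjusted p = 6.94e-08).

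TEK had 22, 31, 26 and 12 counts in het1 under SAHA and 56, 20, 127 and 49 in WT under SAHA, and 26, 13, 15 and 15 in het1 under DMSO and 36, 77, 61 and 42 in WT under DMSO. The groups were apart under DMSO and overlapped under SAHA. The log2 change in het1 against WT was -1.55 ± 0.43 under SAHA (adjusted p = 0.00434), or -0.96 without WT replicate 6, and -1.69 ± 0.44 under DMSO (adjusted p = 0.00345). The WT tumour with 127 TEK counts also had the highest fibroblast sum of its group, 525 CPM against 183 to 311 CPM in the other 3. A link between these values was not tested.

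ERG had 14, 23, 14 and 11 counts in het1 under SAHA and 28, 22, 23 and 22 in WT under SAHA, and 9, 14, 13 and 6 in het1 under DMSO and 39, 23, 28 and 43 in WT under DMSO. Het1 tumours were lower in CPM in both settings without overlap. The log2 change was -1.72 ± 0.33 under DMSO (adjusted p = 0.000198) and -0.69 ± 0.32 under SAHA (adjusted p = 0.074), and the SAHA comparison passed without het1 replicate 2 (-0.89).

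Under SAHA 3 further members differed between the lines. KDR measured 0.184, 0.245, 0.235 and 0.190 CPM in het1 under SAHA, against 0.573, 0.459, 0.554 and 0.442 CPM in WT under SAHA (log2 -1.24 ± 0.27, adjusted p = 0.000619). ESAM measured 0.905, 0.724, 0.617 and 0.759 CPM in het1 under SAHA, against 0.286, 0.125, 0.319 and 0.356 CPM in WT under SAHA (log2 1.46 ± 0.36, adjusted p = 0.00165). VWF had 18, 13, 10 and 9 counts in het1 under SAHA, against 3, 5, 6 and 2 in WT under SAHA (log2 1.54 ± 0.55, adjusted p = 0.0207), and lost its call without het1 replicate 1 (1.32) or WT replicate 3 (1.42) or 8 (1.34). VWF passed the filter on low counts mainly through het1 under SAHA, where it is high, so the filter favoured this call. Under DMSO the same comparison gave -0.54 ± 0.27 for KDR, 0.19 ± 0.38 for ESAM and 0.16 ± 0.54 for VWF, with no call.

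Of 8 members tested in treated tumours, 3 were called higher and 3 lower in het1 under SAHA, and 1 higher and 3 lower in het1 under DMSO, beside 29.9% and 27.3% of all genes called higher and 29% and 26.8% called lower. CDH5 and CLDN5 did not pass the filter there, with 0 to 13 and 3 to 18 counts per tumour. VWF, counted among the members higher under SAHA, passed it mainly through the het1 tumours under SAHA. The fibroblast list summed to 166 to 246 CPM in het1 and 183 to 525 CPM in WT under SAHA, and to 119 to 138 CPM in het1 and 250 to 363 CPM in WT under DMSO, with 4 of 10 genes higher and 5 lower in het1 in each setting. The myeloid list summed to 19.4 to 24.6 CPM in het1 and 39.2 to 50.0 CPM in WT under SAHA, and to 18.3 to 23.1 CPM in het1 and 43.8 to 77.3 CPM in WT under DMSO. The skeletal muscle list (7 genes) summed to 1.28 to 13.3 CPM in het1 and 7.36 to 92.1 CPM in WT under SAHA, and to 2.66 to 21.0 CPM in het1 and 1.32 to 171 CPM in WT under DMSO. The median of each of these sums was lower in het1 than in WT in both settings, as PECAM1 and TEK were. The same held for the pericyte and adipocyte lists. The erythroid median was higher in het1, at 3.20 against 2.22 CPM under SAHA and 2.77 against 1.85 CPM under DMSO. So was the platelet median, at 7.58 against 5.47 CPM and 6.51 against 5.30 CPM. A list of 20 further endothelial genes gave 40.6 against 37.6 CPM under SAHA and 35.7 against 37.4 CPM under DMSO. The part of these lists in the result was not tested.

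SAHA against its vehicle moved few members. In het1, ESAM rose to 0.751 ± 0.119 CPM under SAHA, against 0.298 ± 0.096 CPM under DMSO (SD, n = 4 each), without overlap and with a log2 change of 1.33 ± 0.36 (adjusted p = 0.0144). It was the 1 member called of 8 tested, beside 7.68% of all genes called higher and 9.15% called lower. PECAM1 also stood above DMSO in all 4 het1 tumours under SAHA, but was not called (log2 0.68 ± 0.26, adjusted p = 0.0778). In WT, 0 of 8 members were called by edgeR, beside 0% of all genes in either direction, 1 member had an unadjusted p under 0.05, and DESeq2 called 0 members and 155 genes. The difference between the lines in the SAHA response was called for 0 of 8 members, beside 2.01% of all genes called higher and 2.71% lower, with 3 members at an unadjusted p under 0.05 and 0 members called by DESeq2, and for ESAM it was 1.27 ± 0.53 (adjusted p = 0.181).

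Genes that act with the members in the same pathways were read from lists of symbols. Over all genes tested at day 30, 24.4% to 27.1% were called higher and 24.8% to 27.7% lower in the 3 lines. The medians over all genes were -0.015 to 0.017. In the list of VEGF ligands and receptors (10 genes with KDR), 7 rose and 1 fell in het1, 5 rose and 1 fell in het2, and 8 rose and 2 fell in homo day 30 tumours against WT. The median log2 changes of the list were 0.72, 0.49 and 1.43. VEGFC, a ligand of the lymphatic receptor FLT4, was higher in each edited line in culture (log2 2.47, 1.59 and 2.35 in het1, het2 and homo) and at day 30 (0.88, 0.78 and 1.35). FLT4 rose with it, by 0.43, 0.48 and 0.97 in culture and 2.13, 2.40 and 2.76 at day 30. VEGFA, the main ligand of KDR, was higher in day 30 tumours than in culture in each line, with a log2 change of 2.22 in het1, 1.5 in het2, 1.71 in homo and 1.24 in WT.

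In the list of angiopoietins and TIE receptors (7 genes with TEK and TIE1, 6 tested in tumours), 1 rose and 2 fell in het1, 0 rose and 2 fell in het2, and 2 rose and 3 fell in homo at day 30. Its medians were -0.20, -0.28 and -0.41. ANGPT1, the activating ligand of TEK, was lower in each edited line, measuring 0.622 ± 0.073 CPM in het1, 4.13 ± 0.31 CPM in het2, 2.12 ± 0.34 CPM in homo and 10.4 ± 1.7 CPM in WT day 30 tumours (SD, n = 4 each). It was lower in culture too (log2 -2.35, -0.86 and -1.15). PTPRB, the phosphatase that restrains TEK, was much higher in tumours than in culture in each line (log2 5.31, 5.71, 5.06 and 5.06 in het1, het2, homo and WT).

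In the list of endothelial Notch genes (8 genes), 1 rose and 4 fell in het1, 2 rose and 4 fell in het2, and 2 rose and 5 fell in homo at day 30. The medians of this list were -0.46, -0.33 and -0.86. The receptor NOTCH1 fell by 1.25, 1.35 and 1.38 and the ligand JAG1 by 1.27, 1.30 and 1.47 in the 3 lines. In the list of endothelial transcription factors (17 genes with ERG, 16 tested), 1 rose and 7 fell in het1, 2 rose and 6 fell in het2, and 2 rose and 6 fell in homo. Here the medians were -0.36, -0.21 and -0.069. SOX17, an arterial factor, fell by 2.81, 1.75 and 3.68 and the ETS factor ETS2 by 2.85, 1.18 and 2.03, while FLI1, the ETS factor closest to ERG, had 7 counts over 12 cultures and 1824 over 32 tumours.

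Further endothelial markers (20 genes, of which 13 passed the filter in day 30 tumours) gave 7 higher and 3 lower in het1, 4 higher and 2 lower in het2, and 6 higher and 5 lower in homo. Their median log2 changes were 0.40, 0.36 and 0.80. Their summed level was 27.3 to 34.4 CPM in het1, 28.0 to 36.6 CPM in het2, 16.3 to 19.3 CPM in homo and 32.0 to 35.6 CPM in WT day 30 tumours. In homo the sum thus lay below the WT range while the median log2 change was above 0. CD34, a surface glycoprotein of endothelium and blood progenitors, was higher in tumours than in culture in each line (log2 3.97, 5.45, 3.33 and 5.22 in het1, het2, homo and WT). It had 35 counts over the 12 cultures, at most 13 in any. CD34 thus passed the filter only through the tumours, where it is high, so its calls had to fall that way. Among these 20 genes the tumour counts were uneven. CLEC14A had 0 counts in all 44 libraries, which allows up to 3 counts over them. PLVAP, CD93, ROBO4, ECSCR, EMCN and GIMAP4 had 2, 5, 8, 33, 40 and 64 counts over the 32 tumours. PTPRB had 45671, SOX17 13905, FLT4 6965, ENG 3221, RASIP1 2449, S1PR1 2407, CD36 1596, NOS3 1388, SOX18 1348 and CD34 1283. FLT1, MMRN2 and SOX7 had 315, 454 and 675.

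Over the 32 tumour libraries, with group means subtracted from log2 CPM, Pearson's r was 0.33 between TEK and TIE1, 0.14 between TEK and ERG and -0.50 between KDR and PECAM1, and it was 0.48 between TIE1 and CLDN5, as a description of libraries that share depth and low counts. For the 2 members above 1 CPM on average, the genes most like EGFL7 by this measure were CD99 (0.79), TP53I13 (0.77) and RPL28 (0.77), and those most like PECAM1 were PSTK (0.72), ZNF718 (0.71) and ITGB3BP (0.67). They are the highest of 15226 genes compared, a choice that by itself favours high values, and none was tested.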

How the data were processed

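RNA was extracted with an RNeasy Plus kit and polyadenylated RNA was made into libraries with the KAPA stranded mRNA kit, per the labels' protocols. The deposited values are raw read counts per Ensembl gene, in 3 tables (cultured cells, day 30 tumours and treated tumours) with 0 count columns left without a sample. HTSeq, HISAT2, bcl2fastq and the hg38 build are credited to the submitters' processing notes, which give no versions. The sources used here do not state the strand setting of the counting. All 58721 identifiers matched GENCODE 29.

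Counts were fitted with edgeR 4.0.16 (R 4.3.3; TMM scaling, filterByExpr, quasi-likelihood F-test, Benjamini-Hochberg adjustment over all genes tested). Each table had its own fit, with cultures and day 30 tumours fitted jointly for comparisons between them, and 21704, 22533, 22586 and 24227 genes were tested in cells, day 30 tumours, treated tumours and the joint fit. Of 18 comparisons, 15 were planned and 3 were added after the data were seen. The fits were tested on simulated data. Ratios of low counts have 95% exact intervals, and intervals and floors of 3 counts cover counting error only.

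The members and gene lists were chosen with earlier results of these data known. The genes named are the members, up to 4 genes per list and comparison with the smallest p among those called, and the 3 genes most correlated with each member above a mean of 1 CPM in tumours (log2 CPM, pseudocount 0.5). RGS5 was left out because its symbol matched several identifiers. Alternatives were other size factors, DESeq2 1.42.0, other filters, a replicate block, fits of the compared groups alone and leaving out each library.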

Additional observations from a re-analysis of the deposited data

Results flagged for a closer look

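In 8 of 80 sets of 4 tumours (10 genes in 8 groups), the highest or lowest tumour stood apart from the other 3, where chance gives about 1 in 20 groups. ESAM was high in homo day 30 replicate 1 (0.755 CPM, 54 counts) and PECAM1 in homo day 30 replicate 4 (1.35 CPM). Among het1 tumours under DMSO, PECAM1 was low in replicate 5 (0.178 CPM), TEK was high in replicate 2 (0.363 CPM) and TIE1 was high in replicate 3 (0.164 CPM, 12 counts). ERG was high in replicate 2 of het1 under SAHA (0.282 CPM) and in replicate 3 of WT under SAHA (0.382 CPM), and VWF in replicate 2 of WT under DMSO (0.15 CPM, 11 counts).

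The change from culture to day 30 tumours differed from that of WT in 11 tests of the difference itself, added after the data were seen (edgeR, adjusted p below 0.05). EGFL7 differed by 1.88 in het1, 1.14 in het2 and 1.59 in homo, and ESAM by 2.82, 4.28 and 3.81 in the same lines, on the log2 scale. CDH5 differed by 5.47 in het2 and by a fitted 10.53 in homo, which rests on 0 counts in homo cultures and is no bound (11.15 without WT tumour replicate 2). PECAM1 differed by 3.96, TEK by -2.93 and VWF by -4.52 in het2. These fitted sizes are no bounds either, with 2 PECAM1 counts over the het2 cultures and 2 each of TEK and VWF over the WT cultures. The TEK call was lost without het2 culture replicate 2 (-1.80) or WT culture replicate 1 (-2.51) or 2 (-2.42). VWF was -7.24 without WT culture replicate 3. Cultures and tumours come from separate tables, so growth setting and table cannot be told apart, and all 3 lines share the WT libraries.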

How the results depend on the processing

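Other size factors kept 144 of 146 values on the same side of the threshold and in the same direction, DESeq2 145 of 146, no filter 140 of 146, and fits of the compared groups alone 120 of 122 (this setting gives no separate value for the SAHA by line difference, which already uses just those groups). Requiring a mean of 1 CPM left few members to test, by its construction: members called were then 1 in each cultured line, 3 in het2 and 2 in homo day 30 tumours, 2 in het1 under SAHA and 2 under DMSO, 0 for SAHA in het1, 2 from culture to tumour in each line, and 1, 2 and 1 for the added differences of het1, het2 and homo, against 2, 3, 3, 5, 7, 6, 4, 1, 8, 9, 9, 10 and 2, 6, 3 with the usual filter (het1, het2, homo, then WT where it applies). With no filter 6 members were called in homo cells, against 3. At a mean of 1 CPM in place of 10 counts per library, 1 member was seen in het1 and 1 in homo culture, against 2 each.

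Libraries with the same replicate number did not deviate together (correlations of -0.22 to 0.14 in cells, -0.26 to 0.21 at day 30 and -0.20 to 0.23 in treated tumours), so the number is not a pairing. With a replicate block 130 of 146 values kept direction and call, and the members called for SAHA in het1 became 0 (ESAM 0.96, adjusted p = 0.273, with 0.00176 to 0.273 over the settings tried). Calls also lost were CDH5 in het1 (-1.99) and PECAM1 (-0.74) and ERG (0.77) in homo at day 30, TEK in het1 under DMSO (-1.36), VWF in het1 under SAHA (1.37), and, for tumour over culture, ESAM in homo (0.77) and CLDN5 in WT (1.35), while TEK at day 30 was called in het1 (-0.89) and het2 (-0.85). Under the block values near 0 changed sign: CLDN5 in het1 at day 30 (0.068), VWF in het1 under DMSO (-0.22), ESAM for SAHA in WT (-0.0020), TEK for SAHA in het1 (-0.20) and for the SAHA by line difference (-0.32), and VWF in homo tumours over culture (0.21). The cause was not tested.

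Leaving out 1 library kept 1265 of 1354 values. Those that changed sign were uncalled with all libraries, with ranges in het1 at day 30 of -0.013 to 0.34 (ERG), -0.36 to 0.056 (KDR) and -0.60 to 0.025 (CLDN5), in het2 at day 30 of -0.0049 to 0.35 (ERG), in het1 under DMSO of -0.021 to 0.70 (ESAM) and -0.49 to 0.51 (VWF), and in het1 under SAHA of -0.31 to 0.079 (TIE1). For SAHA the ranges were -0.15 to 0.57 (ESAM, WT), -0.39 to 0.49 (TEK, WT), -0.14 to 0.17 (TIE1, het1) and -0.16 to 0.73 (TEK, difference between lines), and for tumour over culture -0.14 to 0.13 (ESAM, het1) and -0.65 to 0.52 (VWF, homo). For the added differences they were -0.19 to 2.30 (KDR), -1.43 to 0.86 (TIE1) and -2.23 to 0.12 (ERG) in het1, -0.33 to 0.90 (CLDN5) and -2.04 to 0.15 (ERG) in het2, and -1.34 to 3.36 (TEK) and -1.67 to 0.78 (ERG) in homo. The members called for the SAHA by line difference ranged from 0 to 1 and the members seen in het2 culture from 1 to 2. Members with under 10 counts in a library are limited by depth.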
